A study of Mus musculus with 6 samples.

Results

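The sarcomeric myosin heavy chain genes expressed in limb muscle, Myh1, Myh2, Myh3, Myh4, Myh6, Myh7, Myh7b and Myh8, were followed in mouse gastrocnemius, the large calf muscle. The 8 genes were chosen by symbol among 35474 named genes, and all 8 passed the filter on low values. RNA-seq libraries came from 3 Ogg1Tg and 3 Control male mice aged 20 weeks, fed chow, given no treatment and of C57BL/6J background. Ogg1Tg mice carry human OGG1-1a, a form of a DNA repair enzyme that removes oxidised guanine, fused to a signal that carries it into mitochondria. The transgene is driven by a CMV/AG promoter, which the design text does not restrict to muscle, and Control mice are C57BL/6J mice. The labels mention neither founder lines nor shared litters.

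Myosin heavy chains are the motor proteins of the thick filament. Each adult fibre type of limb muscle is named for the chain it holds: Myh7 for slow type I fibres, Myh2 for type IIa, Myh1 for type IIx and Myh4 for type IIb, in rising order of shortening speed. Myh3 and Myh8 encode the embryonic and perinatal chains of developing and regenerating muscle, Myh6 encodes the alpha chain of the heart, and Myh7b is an ancient relative of low abundance. Mouse gastrocnemius is known as a muscle rich in type IIb fibres.

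Values are reads scaled by 1 factor per library. Reads in named genes ran from 45189860 to 56126407 per library in Ogg1Tg muscle and from 48393073 to 52070991 in Control muscle. Muscle markers were abundant in each library, with Acta1, skeletal actin, at 646337, 718332 and 429065 scaled reads in Ogg1Tg replicates 1, 2 and 3 and at 668825, 734469 and 687686 in Control replicates 1, 2 and 3. Ogg1Tg replicate 3 stood apart. Its 8 lymphocyte markers summed to 13720.5 scaled reads, against 224 and 206 in Ogg1Tg replicates 1 and 2 and 198 to 279 in Control muscle. Its 6 adipocyte markers summed to 6793, against 2686 and 2442 in the other Ogg1Tg libraries and 2819 to 3361 in Control muscle. Its 6 skeletal fibre markers had a median log2 difference of -0.69 from the Control mean, against -0.10 and 0.04 in Ogg1Tg replicates 1 and 2 and -0.07 to 0.11 in Control muscle. The part of these differences in the results was not tested. In whole muscle, fewer fibres of a type and less RNA per fibre cannot be told apart.

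limma called 127 of 23312 genes at an adjusted p under 0.05, or 0.545%, and none of the 8 heavy chains was among them (at an unadjusted p under 0.05 there were 2 of the 8, Myh7 and Myh6, and 2570 of all genes). Groups that did not overlap were found for 2 of the 8, Myh7 and Myh6, both higher in Ogg1Tg muscle. Of all genes tested, 7.03% had groups that did not overlap with Ogg1Tg higher, and 11.3% with Ogg1Tg lower. DESeq2 on the whole reads recovered from the values called both, Myh7 and Myh6, as higher, where it called 3.42% of the genes it tested. Without Ogg1Tg replicate 3, limma called 1.86% of genes and none of the 8 chains.

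Per kilobase of exon, the order of levels was Myh4, Myh1, Myh2, Myh8, Myh7, Myh6, Myh3 and Myh7b. Myh4, the fastest chain, held 83.9% of the summed per-kilobase level as the mean of 6 libraries, followed by Myh1 with 8.15%, Myh2 with 5.87% and Myh8 with 1.24%. Myh7 held 0.725% and Myh6 0.0715%, while Myh3 and Myh7b held 0.0332% and 0.0106%. This order of neighbours held in all 6 libraries except for Myh6 over Myh3, which held in 5. The ranges over libraries overlapped for Myh1 and Myh2, for Myh8 and Myh7, and for Myh6 and Myh3, and were apart for the other neighbours. The annotated exons of Myh8 cover 11772 bases and those of Myh7 8616, against 6016 bases for Myh4, so the levels of Myh8 and Myh7 rest on lengths that include exons outside their main transcripts.

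Among the fast chains, Myh4 gave 3253771, 4983846 and 2402914 scaled reads in Ogg1Tg replicates 1, 2 and 3, against 5498760.3, 4183360.0 and 3674266 in Control replicates 1, 2 and 3. Control replicate 1 and Ogg1Tg replicate 2 were the highest libraries and the groups overlapped. The log2 fold change was -0.37 ± 1.37 (SE, limma adjusted p = 0.940). The wide error comes with the variance trend at the top of the expression range; without the trend the limma adjusted p = 0.719 for the same fold change. Without Ogg1Tg replicate 3, the library with low fibre markers, the log2 fold change of Myh4 was -0.12.

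Myh1, the chain of type IIx fibres, gave 545234, 272869 and 227206 scaled reads in Ogg1Tg replicates 1, 2 and 3, against 371165, 500494 and 453567 in Control replicates 1, 2 and 3. Ogg1Tg replicate 1 was the highest of the 6 libraries and the other Ogg1Tg libraries were the lowest. For Myh1 the log2 fold change was -0.44 ± 0.49 (SE, limma adjusted p = 0.761). Myh2, the chain of type IIa fibres, gave 407436, 200042 and 206847 in Ogg1Tg muscle and 264819.8, 399513 and 414859 in Control muscle. It followed the layout of Myh1, with Ogg1Tg replicate 1 inside the Control range and Ogg1Tg replicates 2 and 3 under it. This gave a log2 fold change of -0.46 ± 0.45 (SE, limma adjusted p = 0.736). Without Ogg1Tg replicate 3 the log2 fold changes were -0.18 for Myh1 and -0.31 for Myh2. The highest Ogg1Tg library exceeded the lowest by 2.40 times for Myh1 and 2.04 times for Myh2, against 1.35 and 1.57 times among Control libraries.

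**Figure D1:**
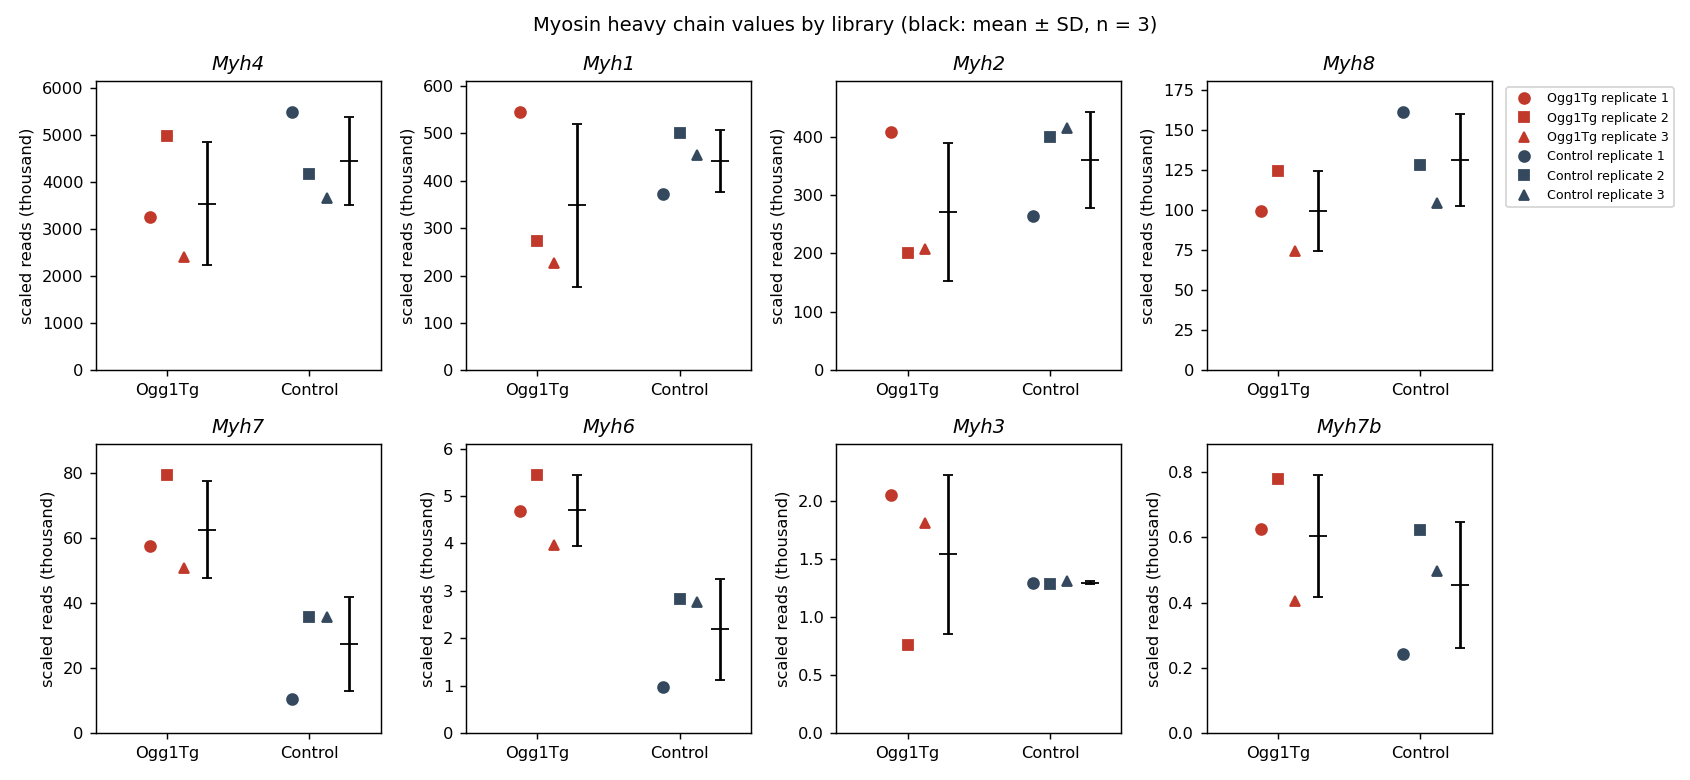
Scaled reads (y axes linear from 0, in the units on the label) of the 8 heavy chain genes in each library, Ogg1Tg in red and Control in blue, with the marker shape giving the replicate number and black bars the mean ± SD (n = 3). Myh7 and Myh6 have groups that do not overlap, with Ogg1Tg above Control; the other 6 overlap.

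Myh7, the slow chain, gave 57593, 79545 and 50855 scaled reads in Ogg1Tg replicates 1, 2 and 3, against 10585, 35642 and 35632 in Control replicates 1, 2 and 3. The groups did not overlap, and the lowest value by far belonged to Control replicate 1. Ogg1Tg muscle averaged 62664 ± 15002 and Control muscle 27287 ± 14464 (SD, n = 3 each). The log2 fold change was 1.37 ± 0.44 (SE), which did not pass with limma (unadjusted p = 0.013, adjusted p = 0.30). Without Control replicate 1 it was 0.79 (limma adjusted p = 0.547), and without Ogg1Tg replicate 3 it was 1.51 (limma adjusted p = 0.133). On recovered reads the adjusted p was 0.262 with edgeR and 0.0204 with DESeq2.

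Myh6, the alpha chain, is the neighbour of Myh7 on chromosome 14 and gave 4686, 5449 and 3956 scaled reads in Ogg1Tg replicates 1, 2 and 3, against 961, 2816 and 2772 in Control replicates 1, 2 and 3. The groups did not overlap and Control replicate 1 was again the lowest library. The log2 fold change was 1.25 ± 0.37 (SE, limma adjusted p = 0.258), or 0.74 without Control replicate 1 and 1.37 without Ogg1Tg replicate 3, and DESeq2 gave 1.16 with an adjusted p = 0.0188. Of the 50-base windows of the Myh6 transcript, 22.6% also occur in another of 9 sarcomeric heavy chain transcripts, and 22.2% of those of Myh7 do. The sources used here do not say how the authors' counting placed reads that match both genes. The 5 cardiac markers Nppa, Nppb, Tnni3, Mybpc3 and Myl7 summed to 20.0, 18.5 and 67.4 scaled reads in Ogg1Tg muscle and to 23.6, 15.4 and 18.3 in Control muscle, which is near 0 in each library beside the Myh6 values.

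Myh7b, on chromosome 2, gave 626, 781 and 406 scaled reads in Ogg1Tg replicates 1, 2 and 3, against 241, 622 and 496 in Control replicates 1, 2 and 3. The groups overlapped and Control replicate 1 was lowest here too. Its log2 fold change was 0.47 ± 0.36 (SE, limma adjusted p = 0.667), and it was 0.07 without Control replicate 1 and 0.73 without Ogg1Tg replicate 3. None of the 50-base windows of the Myh7b transcript occurs in the other heavy chains.

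Introns of these 3 genes hold the microRNAs of the myosin family, which in mice repress transcripts of fast-fibre regulators such as Sox6. The mature sequences, from RefSeq on GRCm38.p6, are shown because they carry the link between the 3 host genes; capitals mark the seed, bases 2 to 8. The 2 microRNAs of chromosome 14 share the seed, and their sequences have the same letter at 19 of 22 positions. The seed of mmu-miR-499-5p matches theirs at 6 of 7 positions.
mmu-miR-208b-3p (in Myh7): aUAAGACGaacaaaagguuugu
mmu-miR-208a-3p (in Myh6): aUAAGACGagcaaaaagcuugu
mmu-miR-499-5p (in Myh7b): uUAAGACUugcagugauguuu
The libraries were not made for small RNA and give only reads on the precursor genes. Mir208b had 4, 14 and 3 reads in Ogg1Tg replicates 1, 2 and 3 and 0, 1 and 0 in Control replicates 1, 2 and 3, with no overlap (log2 fold change 2.49, limma adjusted p = 0.336). Higher groups without overlap were found for 7.03% of all genes tested. Mir499 had 2, 1 and 0 reads in Ogg1Tg muscle and 0 in each Control library. Mir208a had 0 reads in each Ogg1Tg library and 0, 0 and 1 in Control muscle. At these depths reads of the host intron cannot be told apart from reads of the precursor. Of the 4 listed targets of these microRNAs, Sox6, Purb, Sp3 and Cbx1, none passed limma. Their median log2 fold change was -0.24, against -0.025 for all genes tested and -0.24 for the 6 skeletal fibre markers. The part of the microRNAs in the median of the targets was not tested. Sox6, a repressor of slow-fibre genes, gave 11827, 16446 and 8222 scaled reads in Ogg1Tg muscle and 17701, 14989 and 15270 in Control muscle, with overlap. Sp3 overlapped too. Purb and Cbx1 lay lower without overlap, as did 11.3% of all genes tested. Purb gave 3442, 3897 and 3377 in Ogg1Tg muscle and 4589, 4207.5 and 4183 in Control muscle. Cbx1 gave 1366, 1380 and 1329 in Ogg1Tg muscle and 1582, 1529 and 1599 in Control muscle.

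Of the developmental chains, the perinatal Myh8 gave 99203, 123940.2 and 74244 scaled reads in Ogg1Tg replicates 1, 2 and 3, against 160993, 127765 and 104186 in Control replicates 1, 2 and 3. The groups overlapped and the log2 fold change was -0.41 ± 0.30 (SE, limma adjusted p = 0.658), or -0.22 without Ogg1Tg replicate 3. The embryonic Myh3 gave 2052, 759 and 1807 scaled reads in Ogg1Tg muscle and 1288, 1283 and 1308 in Control muscle. Control libraries lay within 1.02 times of each other, while Ogg1Tg libraries spanned 2.70 times and lay on both sides of them. The log2 fold change of Myh3 was 0.13 ± 0.32 (SE, limma adjusted p = 0.909) and turned to -0.14 without Ogg1Tg replicate 1 and -0.05 without Ogg1Tg replicate 3.

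Shares within a library need no scaling between libraries. Myh7 made up 1.32%, 1.40% and 1.71% of the summed heavy chain reads in Ogg1Tg replicates 1, 2 and 3, against 0.168%, 0.679% and 0.760% in Control replicates 1, 2 and 3. Each Ogg1Tg library lay above each Control library. The mean share was 1.48% ± 0.208 in Ogg1Tg muscle and 0.536% ± 0.321 in Control muscle, a ratio of 2.76 (two-sided exact permutation p = 0.1, n = 3 each, the smallest p that 3 libraries against 3 allow). Myh6 showed the same layout, at 0.107%, 0.0962% and 0.133% in Ogg1Tg muscle and 0.0152%, 0.0536% and 0.0591% in Control muscle (exact permutation p = 0.1, n = 3 each). Myh7b held 0.0139% ± 0.00035 in Ogg1Tg muscle and 0.00875% ± 0.00432 in Control muscle, also without overlap (exact permutation p = 0.1, n = 3 each), although its scaled reads overlapped. That difference of 0.00518 percentage points was 0.00272 without Control replicate 1.

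The adult fast chains Myh1, Myh2 and Myh4 together made up 96.2%, 96.3% and 95.6% in Ogg1Tg replicates 1, 2 and 3, against 97.2%, 96.8% and 96.9% in Control replicates 1, 2 and 3. The groups did not overlap, and the difference of the means was -0.950 percentage points (exact permutation p = 0.1, n = 3 each). Shares of the 8 chains sum to 100%, so this difference is not independent of that in the Myh7 share. Within the fast class the groups overlapped. Myh4 held 74.4%, 87.9% and 81.0% in Ogg1Tg muscle and 87.2%, 79.7% and 78.4% in Control muscle (exact permutation p = 1, n = 3 each). Myh1 held 12.5%, 4.81% and 7.65% in Ogg1Tg muscle and 5.88%, 9.53% and 9.68% in Control muscle, so that the libraries with the most Myh4 had the least Myh1. Since Myh4 holds most of the sum, a higher Myh4 share leaves less for Myh1 and Myh2, and this order is not an independent result. Myh2 held 9.32%, 3.53% and 6.97% in Ogg1Tg muscle and 4.20%, 7.61% and 8.85% in Control muscle. Myh1 averaged 8.31% in Ogg1Tg muscle and 8.36% in Control muscle, and Myh2 averaged 6.61% in Ogg1Tg muscle and 6.89% in Control muscle (exact permutation p = 1 and 0.8, n = 3 each).

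Ratios within a library set the slow chain against the fast ones. The log2 ratio of Myh7 to Myh2 was -2.82, -1.33 and -2.02 in Ogg1Tg replicates 1, 2 and 3, against -4.64, -3.49 and -3.54 in Control replicates 1, 2 and 3. The groups did not overlap, with a difference of 1.83 (exact permutation p = 0.1, n = 3 each), and of 1.46 without Control replicate 1. The log2 ratio of Myh4 to Myh1 was 2.58, 4.19 and 3.40 in Ogg1Tg muscle and 3.89, 3.06 and 3.02 in Control muscle, with overlap (exact permutation p = 1, n = 3 each). The 8 chains together took 7.01%, 8.29% and 6.53% of all reads in named genes in Ogg1Tg muscle and 8.74%, 7.76% and 7.10% in Control muscle (exact permutation p = 0.4, n = 3 each). Myh8 held 2.32% ± 0.163 of heavy chain reads in Ogg1Tg muscle and 2.40% ± 0.167 in Control muscle, with overlap (exact permutation p = 0.6, n = 3 each). Myh3 held 0.0404% ± 0.0244 in Ogg1Tg muscle and 0.0242% ± 0.00374 in Control muscle, also with overlap (exact permutation p = 0.4, n = 3 each).

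**Figure D2:**
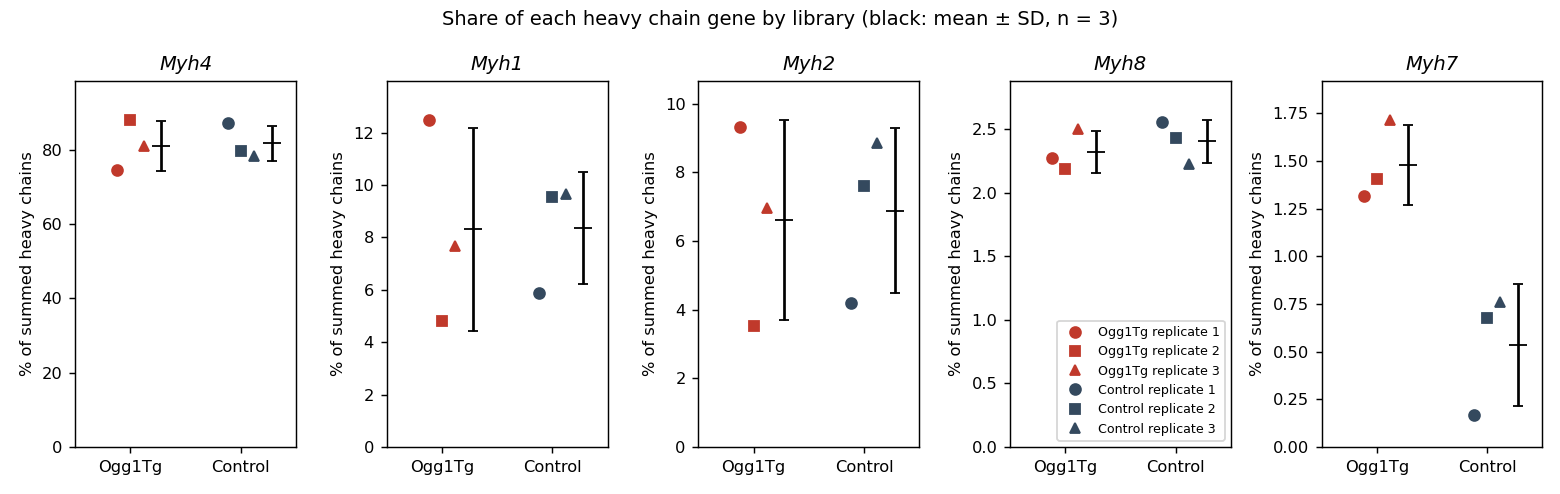
Percent of the summed reads of the 8 heavy chains (y axes from 0) held by Myh4, Myh1, Myh2, Myh8 and Myh7 in each library, Ogg1Tg left in red and Control right in blue; black bars are the mean ± SD (n = 3). Myh7 separates the groups, 1.32% to 1.71% in Ogg1Tg and 0.168% to 0.760% in Control, while the others overlap.

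Some pairs of genes kept nearly 1 ratio of reads over the 6 libraries. Myh8 reads were 3.05%, 2.49% and 3.09% of Myh4 reads in Ogg1Tg replicates 1, 2 and 3 and 2.93%, 3.05% and 2.84% in Control replicates 1, 2 and 3. Its coefficient of variation over libraries was 7.80%, against 39.4% for Myh1 relative to Myh4. Of the 50-base windows of the Myh8 transcript, 21.4% occur in another heavy chain and 9.31% occur in Myh4, and the part of such shared sequence in the Myh8 values was not tested. Myh6 reads were 8.14%, 6.85% and 7.78% of Myh7 reads in Ogg1Tg muscle and 9.08%, 7.90% and 7.78% in Control muscle. Myh2 reads were 71.3% to 91.5% of Myh1 reads, a coefficient of variation of 11.1%. Of the 50-base windows of Myh1 and Myh2, 26.7% and 26.9% occur in another heavy chain. Of each, 19.7% occur in the other of the pair, and 10.5% and 9.94% occur in Myh4. The part of this shared sequence in the Myh1 and Myh2 values was not tested. Myh7b did not keep a fixed ratio to Myh7, at 1.09%, 0.981% and 0.799% in Ogg1Tg muscle and 2.28%, 1.75% and 1.39% in Control muscle, with no overlap.

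The genes whose profile over the 6 libraries lay nearest to each chain were sought among 12848 genes with a mean of at least 100. The measure was the root mean square difference of log2 values after centring each gene. Nearest to Myh7 were Tnnc1, the slow troponin C, at 0.031, Tnni1, the slow troponin I, at 0.086, and Tpm3, a slow tropomyosin, at 0.27, where the profile of Myh7 itself spread by 0.92. Tnnc1 reads were 3.43%, 3.59% and 3.38% of Myh7 reads in Ogg1Tg muscle and 3.47%, 3.58% and 3.47% in Control muscle, a coefficient of variation of 2.38%. Tnnc1 and Tnni1, which were chosen for this likeness, followed Myh7 in every library, including its low value in Control replicate 1.

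Nearest to Myh4 were Pvalb, the calcium buffer parvalbumin, at 0.043, Tpm1, a tropomyosin, at 0.053, and Casq1, the calsequestrin of fast fibres, at 0.055, where Myh4 itself spread by 0.40. Nearest to Myh2 were Coq8a, a gene of coenzyme Q synthesis, at 0.061, Smtnl1 at 0.073 and Oxct1, an enzyme of ketone body use, at 0.080. Nearest to Myh1 were Mdh1, the cytosolic malate dehydrogenase, at 0.10, and Foxo6os and Agbl1 at 0.11. Myh1 and Myh2 each spread by 0.46. None of these 12 genes passed limma. They were chosen for profiles like those of chains that did not pass, so this is not an independent result.

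**Figure D3:**
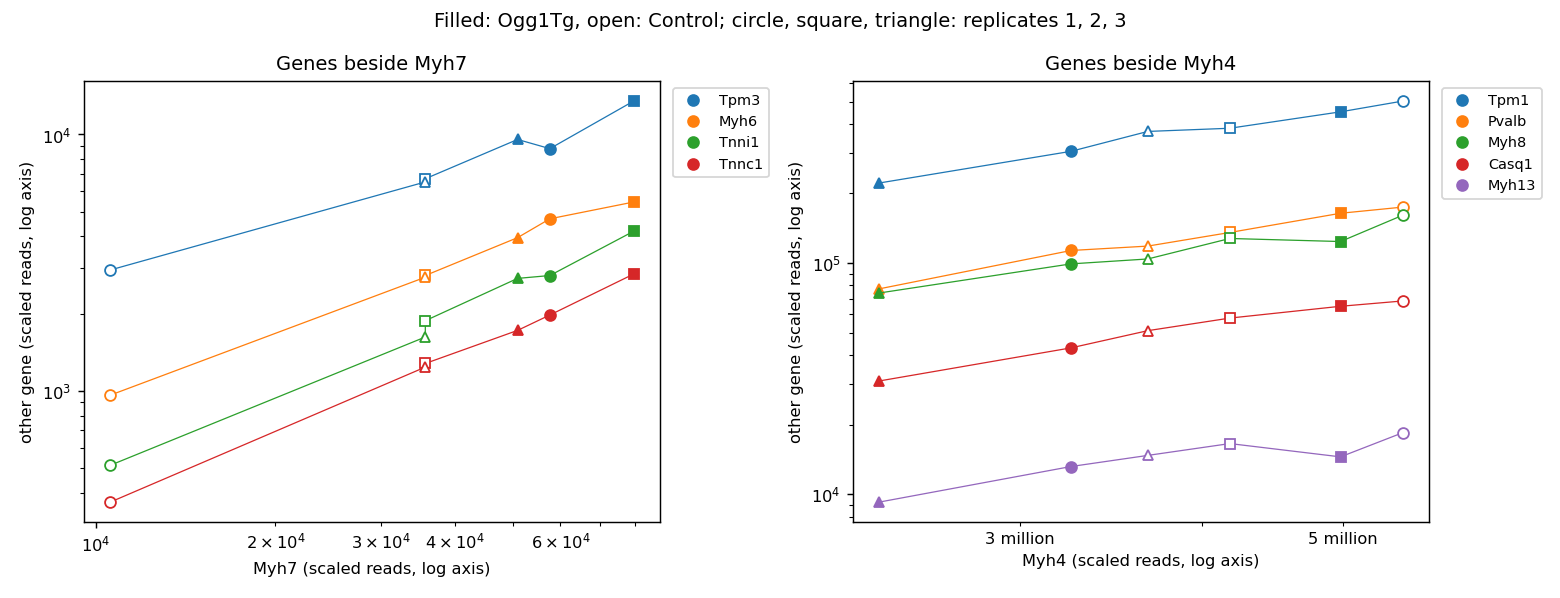
Scaled reads of genes beside Myh7 (left) and beside Myh4 (right), both axes logarithmic, with 1 symbol per library (filled for Ogg1Tg, open for Control) and lines joining the libraries of a gene in order of the chain on the x axis. Tnnc1, Tnni1 and Myh6 climb in step with Myh7, and Pvalb, Tpm1 and Casq1 with Myh4; Tpm3, Myh8 and Myh13 climb less evenly.

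Myh1, Myh2, Myh3, Myh4 and Myh8 lie in 1 cluster on chromosome 11, from 67078300 to 67371586 of mm10, all on the plus strand, with Myh3 first, then Myh2, Myh1, Myh4 and Myh8, followed by Myh13, the chain of eye and larynx muscles. The cluster holds 11 annotated genes in GENCODE M21, of which 10 were in the deposited tables. Its only gene called by limma was a noncoding one. The long noncoding RNA 2310065F04Rik, which RefSeq also lists as linc-Myh, lies on the minus strand from 67112461 to 67120080, between Myh3 and Myh2, and overlaps neither. In mice it is known as a transcript of fast fibres.

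The linc-Myh transcript fell in Ogg1Tg muscle, with 1025, 1545 and 681 scaled reads in Ogg1Tg replicates 1, 2 and 3, against 3866, 3828 and 3666 in Control replicates 1, 2 and 3. The Control libraries lay close together and each Ogg1Tg library lay far under them. The log2 fold change was -1.88 ± 0.25 (SE, limma adjusted p = 0.0145), where limma called 0.15% of all genes as lower. The adjusted p was 0.0219 with edgeR and 8.6e-10 with DESeq2 on recovered reads. With 1 library left out the log2 fold change stayed between -2.18 and -1.59. The call was kept without Ogg1Tg replicate 2 or 3 and lost in the other 4 such fits, without Ogg1Tg replicate 1 (limma adjusted p = 0.0756) or Control replicate 1, 2 or 3 (limma adjusted p = 0.122, 0.147 and 0.109), as it was with no variance trend (limma adjusted p = 0.191).

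The other noncoding genes of the cluster overlap heavy chains on the opposite strand. Myhas, which runs from 67211256 to 67237573 and overlaps Myh1 over 13320 bases, gave 1864, 1782 and 1027 scaled reads in Ogg1Tg muscle and 1559, 1672 and 1680 in Control muscle. The antisense gene 9430073C21Rik, which overlaps Myh2 over 1838 bases, gave 871, 418 and 633 in Ogg1Tg muscle and 600.5, 1050.5 and 1189 in Control muscle. Both overlapped between groups and neither passed limma. With no strand setting named, reads of these genes and of the heavy chains they overlap cannot be told apart. Myh13 gave 13176, 14506 and 9247 scaled reads in Ogg1Tg muscle and 18447, 16560 and 14720 in Control muscle, lower with no overlap (log2 fold change -0.45, limma adjusted p = 0.441). Lower groups without overlap were found for 11.3% of all genes tested.

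**Figure D4:**
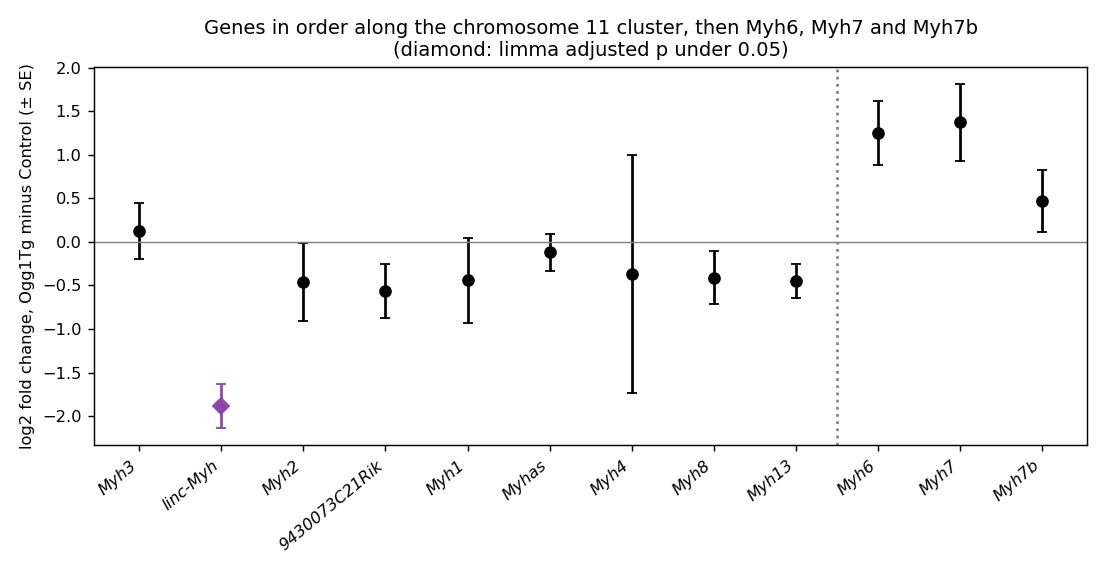
Log2 fold change, Ogg1Tg minus Control, ± SE from limma (y axis), for the tested genes of the chromosome 11 cluster in their order along the chromosome, then for Myh6, Myh7 and Myh7b to the right of the dotted line. The purple diamond, linc-Myh at -1.88, is the only gene shown with an adjusted p under 0.05.

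The adult fast genes and Myh8 have related promoters. The stretch below, 100 bases upstream of each RefSeq start on the plus strand of GRCm38.p6, is shown because it holds the longest run that the 4 promoters share, 14 letters in capitals. That run was found from these 4 sequences, starts 125 bases before the start of Myh2, 160 before Myh1, 158 before Myh4 and 54 before Myh8, and on either strand occurs in 4 of 27025 gene promoters of 300 bases, or 0.0148%, which are these 4.
Myh2 at chr11:67170836-67170935: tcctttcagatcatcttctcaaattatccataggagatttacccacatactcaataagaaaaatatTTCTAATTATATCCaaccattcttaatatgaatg
Myh1 at chr11:67199876-67199975: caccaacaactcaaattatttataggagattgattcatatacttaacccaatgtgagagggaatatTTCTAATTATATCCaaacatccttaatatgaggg
Myh4 at chr11:67237588-67237687: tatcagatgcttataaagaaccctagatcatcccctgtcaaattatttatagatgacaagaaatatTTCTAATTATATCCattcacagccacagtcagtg
Myh8 at chr11:67277004-67277103: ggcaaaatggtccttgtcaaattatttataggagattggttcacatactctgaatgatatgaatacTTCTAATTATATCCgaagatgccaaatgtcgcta
The shorter run CAAATTAT was set by hand and not found by a search, so its presence in these 4 promoters is not an independent result. It lies upstream of the 14-letter run in each of the 4 and does not overlap that run. On either strand CAAATTAT occurs in 0.87% of promoters, and among the 8 heavy chains in the same 4. The letters TATAAAA occur on either strand in 6.39% of promoters and in those of Myh3, Myh2, Myh1 and Myh4. These matches describe the sequence and bear on no measured binding.

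Like the heavy chains, none of the listed slow-fibre genes passed limma. Of 14 tested members of the slow contractile and calcium list, 11 had a fold change above 0 and the median log2 fold change was 0.62, where 47.2% of all genes tested lay above 0 and their median was -0.025. By library, the median log2 difference of the list from the Control mean was 0.72, 0.68 and 0.42 in Ogg1Tg replicates 1, 2 and 3, against -0.58, 0.07 and 0.49 in Control replicates 1, 2 and 3. Control replicate 1 was the lowest library, and Control replicate 3 lay above Ogg1Tg replicate 3. Groups did not overlap for 5 members, Tnnt1, Tnni1, Tnnc1, Tpm3 and Myl6b, all higher, where 7.03% of all genes were higher without overlap. The slow troponin I gene Tnni1 gave 2815, 4190 and 2743 scaled reads in Ogg1Tg replicates 1, 2 and 3, against 512, 1876 and 1620 in Control replicates 1, 2 and 3. Tpm3 gave 8804, 13500.2 and 9561 in Ogg1Tg muscle and 2959, 6718 and 6527 in Control muscle. As with Myh7, Control replicate 1 was the lowest library of both. The log2 fold changes were 1.46 ± 0.43 for Tnni1 and 1.04 ± 0.31 for Tpm3 (SE, limma adjusted p = 0.258 and 0.259), and without Control replicate 1 they were 0.87 and 0.66. DESeq2 called 2 of the 14 as higher, Tpm3 and Tnnc1 (adjusted p = 0.0169 and 0.0364), where it called 3.42% of all genes it tested.

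The slow-list genes with the most reads did not share that layout. Mybpc1, the slow myosin binding protein C, gave 73169, 42207 and 27046 scaled reads in Ogg1Tg muscle and 48250, 78044 and 82719 in Control muscle. Atp2a2, the calcium pump of slow fibres and heart, gave 23653, 27401 and 16054 in Ogg1Tg muscle and 12195, 18623 and 24518 in Control muscle. Myl3, a slow light chain, gave 10539, 11228 and 6508 in Ogg1Tg muscle and 3997, 6655 and 9469 in Control muscle. The groups overlapped for these 3 genes. Mb, myoglobin, the oxygen store of oxidative fibres, lay on the opposite side to Myh7. It gave 23409, 14900 and 6392 scaled reads in Ogg1Tg muscle and 26217, 42743 and 39151 in Control muscle, lower with no overlap (log2 fold change -1.43 ± 0.42, SE, limma adjusted p = 0.252). Lower groups without overlap were found for 11.3% of all genes tested. DESeq2 called 1 of the 6 skeletal fibre markers, of which Mb is a member, as lower, where it called 3.42% of all genes it tested.

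All 12 fast contractile and calcium genes tested had a fold change under 0, with overlapping groups for each and none passing limma. Their median log2 fold change was -0.36, and it was -0.09 without Ogg1Tg replicate 3, the library with low fibre markers. All 6 skeletal fibre markers and all 7 tested chaperones and assembly factors also had a fold change under 0. Tnnc2, the fast troponin C, lay far under the rest of the list, at 92.5 to 214 scaled reads, and the reason was not tested. Atp2a1, the fast calcium pump, gave 971207, 1193789 and 677190.5 scaled reads in Ogg1Tg replicates 1, 2 and 3 and 1171424, 1031589.9 and 980505 in Control replicates 1, 2 and 3. Tnnt3, the fast troponin T, gave 395843, 458803 and 239993 in Ogg1Tg muscle and 525134, 466950 and 413224 in Control muscle. Tpm1 gave 304452, 451165 and 222113 in Ogg1Tg muscle and 502196, 383146 and 371153 in Control muscle. Actn3, the alpha-actinin of fast fibres, gave 265865, 440723 and 199264 in Ogg1Tg muscle and 411131, 288317 and 269018 in Control muscle. Control replicate 1 and Ogg1Tg replicate 2, high for Myh4, were also the highest libraries for Tpm1 and Actn3.

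**Figure D5:**
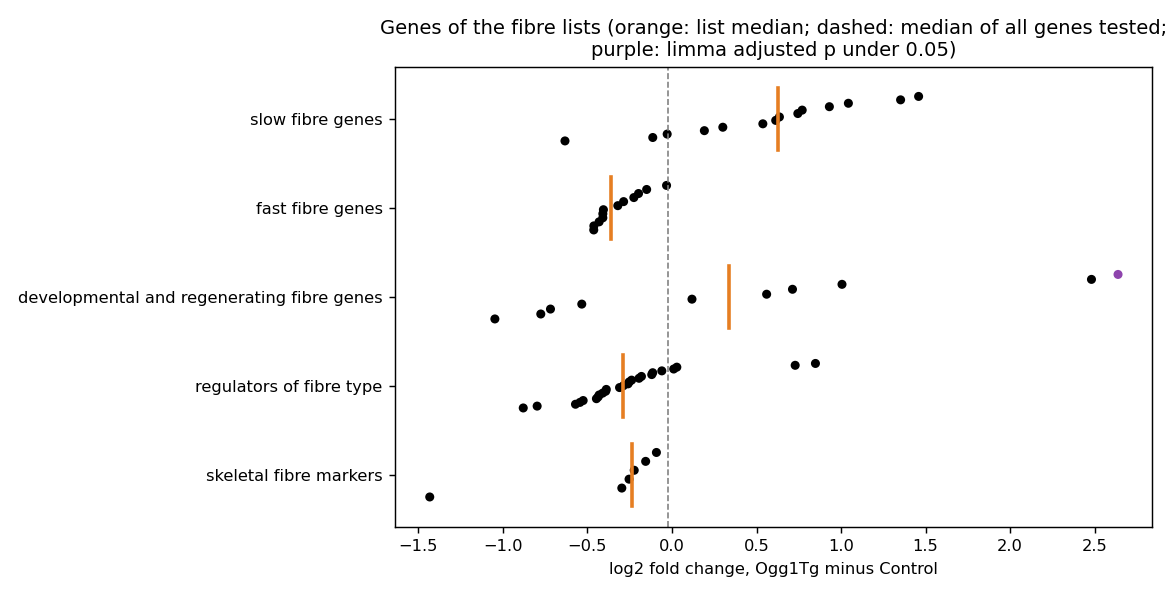
Log2 fold change, Ogg1Tg minus Control, of each tested gene of 5 lists (rows), with the median of the list in orange and the median of all genes tested, -0.025, as a dashed line. Slow-fibre genes have a median of 0.62 and fast-fibre genes one of -0.36; Actc1, in purple among the developmental genes, is the only gene called by limma.

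Of 10 tested genes of developing and regenerating fibres, 1 rose and 9 did not pass, where limma called 0.395% of all genes as higher. Actc1, the cardiac actin that fetal and regenerating muscle also use, rose to 9331, 9430 and 18982 scaled reads in Ogg1Tg replicates 1, 2 and 3, against 1690.5, 3146 and 1300.0 in Control replicates 1, 2 and 3. Each Ogg1Tg library exceeded each Control library (log2 fold change 2.64 ± 0.36, SE, limma adjusted p = 0.0151). The call was lost in 3 of 6 fits with 1 library left out, without Ogg1Tg replicate 1 (limma adjusted p = 0.05004) and Control replicates 1 and 3 (limma adjusted p = 0.133 and 0.105), while the log2 fold change stayed between 2.30 and 3.00. The call was also lost with no variance trend (limma adjusted p = 0.198). Groups did not overlap, with Ogg1Tg higher, for Myog, the terminal myogenic factor, Ncam1, an adhesion molecule of immature and denervated fibres, and Mymk, the fusion protein myomaker, which rested on 13, 12 and 13 reads in Ogg1Tg muscle and 1, 0 and 6 in Control muscle. Ncam1 gave 608, 569 and 519 in Ogg1Tg muscle and 273, 373 and 398 in Control muscle (limma adjusted p = 0.183). DESeq2, which tested 7 of the 10, called Actc1, Ncam1 and Myog as higher (adjusted p = 0.000152, 0.0154 and 0.0480). Among all genes it tested, DESeq2 called 3.42%. Tnnt2, the cardiac and embryonic troponin T, lay lower with no overlap, at 74.4, 58.2 and 38.2 in Ogg1Tg muscle and 104, 92.3 and 88.8 in Control muscle. Of all genes tested with limma, 7.03% were higher and 11.3% lower without overlap. Myod1, the myogenic factor of fast fibres, gave 746, 827 and 386 in Ogg1Tg muscle and 1087, 1283 and 764 in Control muscle, with overlap. Myl4, a light chain of embryonic muscle, gave 215, 173 and 112 in Ogg1Tg muscle and 143, 67.1 and 134 in Control muscle, also with overlap.

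None of 25 regulators of fibre type passed limma, and 4 of them had a fold change above 0, with a median of -0.29, or -0.08 without Ogg1Tg replicate 3. Prox1, a transcription factor that in mice promotes slow fibres, gave 488, 669 and 734 scaled reads in Ogg1Tg muscle and 298, 354 and 388 in Control muscle. Its groups did not overlap, with each Ogg1Tg library above each Control library (log2 fold change 0.85 ± 0.19, SE, limma adjusted p = 0.138). Higher groups without overlap were found for 7.03% of all genes tested. DESeq2 called Prox1 higher (adjusted p = 0.00464), where it called 3.42% of the genes it tested. Prox1 was highest in Ogg1Tg replicate 3, the library with high lymphocyte markers, and its log2 fold change without that library was 0.73.

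The nuclear receptor gene Esrrg, active in oxidative fibres, was also higher without overlap (limma adjusted p = 0.393). It gave 5927, 3236 and 2911 scaled reads in Ogg1Tg muscle and 1664, 2598 and 2838 in Control muscle. Tbx15, a factor of glycolytic fibres, Mef2c, Tead1 and Tead4 were lower without overlap. Of all genes tested, 7.03% were higher and 11.3% lower without overlap. Ppargc1a, Esrrb and Nfatc1 of the same list had log2 fold changes of -0.57, -0.39 and -0.19, with overlap. Mef2c, a factor of muscle genes with the most reads of the list, gave 40886, 43661 and 28712 in Ogg1Tg muscle and 51747, 48597 and 50509 in Control muscle. Tead1 gave 19214, 17154 and 10273 in Ogg1Tg muscle and 20335, 22487 and 22086 in Control muscle. For both genes Ogg1Tg replicate 3 lay lowest. Maf, a factor of type IIb fibres in mice, gave 13858, 21831 and 11455 in Ogg1Tg muscle and 22485, 17222 and 17059 in Control muscle, and Mef2d gave 17586, 18560.3 and 12168 in Ogg1Tg muscle and 15913, 15340.4 and 15332 in Control muscle; both overlapped. The 6 skeletal fibre markers, Mb among them, had a median log2 fold change of -0.24, or -0.02 without Ogg1Tg replicate 3. The part of fibre RNA in the regulators' medians was not tested.

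None of 6 heavy chains outside limb sarcomeres passed limma, and their median log2 fold change was -0.01. Myh9, the nonmuscle chain, gave 7554, 7567 and 15704 scaled reads in Ogg1Tg muscle and 6844, 8141 and 7478 in Control muscle, highest in the library with high lymphocyte markers. Myh10, another nonmuscle chain, gave 5219.6, 2727 and 2815 in Ogg1Tg muscle and 2611, 3185 and 3888 in Control muscle. Myh14 gave 4474, 4133 and 2598 in Ogg1Tg muscle and 4031, 3935 and 3878 in Control muscle. For these 3 genes the groups overlapped. Of 8 listed chaperones and assembly factors 7 were tested under their listed symbol, none passed limma and the median was -0.16. Smyd1, a methyltransferase of thick filament assembly, gave 16101, 19052 and 12092 in Ogg1Tg muscle and 19650.4, 18804 and 17464 in Control muscle. Unc45b, the myosin chaperone, gave 9887, 10271 and 6821 in Ogg1Tg muscle and 10062, 9745 and 9580.3 in Control muscle, with overlap. Trim63, the ubiquitin ligase MuRF1 that acts on thick filament proteins, lay lower with no overlap, at 9554, 10091 and 5069 in Ogg1Tg muscle and 13941, 13202 and 10140.2 in Control muscle (log2 fold change -0.64 ± 0.26, SE, limma adjusted p = 0.409). Lower groups without overlap were found for 11.3% of all genes tested. Trim54 gave 6824, 7638 and 4496 in Ogg1Tg muscle and 7665, 6591 and 6504 in Control muscle.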

How the data were processed

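Per the labels' protocols, RNeasy columns yielded the total RNA and the NuGen Ovation Universal RNA-Seq system the libraries. Trimmomatic, SAMtools, HTSeq and mm10 are listed per the submitters' processing notes; aligner, annotation and strand setting are not given there. The deposited values are named FPKM but hold a signal of another kind: gene counts that the authors divided by 1 factor per library, since 100% of values were within 0.01 of whole multiples of 1 step per library. In Ogg1Tg replicate 3 the step, 1.006, makes this less distinctive. The design had assumed FPKM, and its log2 test was kept. Entries without a gene name, 1824 of 37315, took 2.38% to 3.54% of reads and stayed out of the tests.

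limma 3.58.1 in R 4.3.3 was fitted to log2(value + 1) of genes with a mean of at least 1, with a variance trend, two-sided, with Benjamini-Hochberg adjustment over all genes and calls under 0.05. The p-values measure the spread between these 6 libraries. edgeR 4.0.16 and DESeq2 1.42.0 on recovered reads, other pseudocounts, filters and scalings, a replicate block and fits without each library were alternatives. The fit was tried on simulated data that gave every gene the same dispersion and held no outlying library. That trial therefore does not cover libraries that stand apart, as some here do. Shares used two-sided exact permutation tests. Coordinates come from GENCODE M21 (GRCm38, which mm10 represents). Members, lists and tests were chosen with earlier results of these data known. Named genes are the members, called list genes, up to 4 list members of highest mean, cluster genes and nearest profiles. Mb, Prox1 and other list genes named because their groups did not overlap were chosen after their values were seen. The same holds for Ppargc1a, Esrrb and Nfatc1, which were named as regulators with fold changes under 0. 1 listed regulator is not reported here.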

Additional observations from a re-analysis of the deposited data

How the results depend on the processing

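The total of 127 called genes was 46 with no variance trend, 573 with DESeq2, and 35 to 425 with 1 library left out; the cause was not tested. Myh7 and Myh6 passed with DESeq2 alone, at log2 fold changes of 1.25 and 1.16 (adjusted p = 0.0204 and 0.0188). Quantile normalization set the Myh4 fold change to 0, since the gene holds the same rank in each library. With 1 library left out, the log2 fold change of Myh3 ran from -0.14 to 0.57 and the log2 ratio of Myh4 to Myh1 differed by -0.33 to 0.47. The difference of mean shares ran from -2.13 to 1.70 points for Myh1, -1.64 to 1.26 for Myh2, -4.04 to 2.71 for Myh4 and -0.168 to 0.0126 for Myh3 and Myh8 together, each on both sides of 0. The Myh7 share stayed 0.759 to 1.06 points higher and its fold change 0.79 to 1.66. Rescaling to fibre markers, added after seeing the data, moved the median of all genes from -0.025 to 0.154; other settings kept it within 0.05 of 0. Replicate numbers did not pair the libraries (correlations of same-numbered deviations -0.0534, -0.00512 and 0.0306), and with the replicate block linc-Myh stayed called (limma adjusted p = 0.0151) and 102 genes passed. The microRNA precursors, Mymk and the cardiac markers rest on few reads, which limits their values.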
